A study of Mus musculus with 43 samples.

Results

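Transcript levels of 43 genes that act in G2 and mitosis were followed in mouse embryonic stem cells (ESCs) and embryos in which the RNA helicase DDX18, RNA polymerase I or protein synthesis was perturbed. The 43 genes were taken by symbol, for what their products do, from the 46683 gene symbols of a full expression table. No expression value entered the choice of genes, and where a symbol was repeated the entry with the highest mean was used. The ESCs were of the line CJ9 on strain 129S1/SVImJ, grown with serum and LIF. The question put by the study was how far the transcriptome after DDX18 loss resembles that after inhibition of RNA polymerase I or of translation. DDX18 knockdown was compared with control in these ESCs, in p53 KO ESCs and in EZH2 KO ESCs, with 2 libraries a group, and the controls of the latter tables carried the same deletion as the knockdown cells. Actinomycin D (ActD), which at low dose stops RNA polymerase I, was given at 5 or 10 ng/ml to ESCs (2 libraries each against 3 untreated) and at 10 ng/ml to p53 KO ESCs (2 against 2). CX-5461, another RNA polymerase I inhibitor, was given at 1 µM (3 against 3 untreated), and cycloheximide (CHX), which blocks translation elongation, at 10 µM (2 against 2 untreated). E3.5 embryos, labelled C57/B6 and taken from DDX18 heterozygous pregnant mice, were wild type or DDX18 KO (2 libraries each). The means of knockdown, the length of treatment, the number of knockout clones, and whether a library pooled embryos are not given in the sources used here.

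The members fall into 9 roles along the path from G2 to cell separation. Cyclins A and B with the kinase CDK1 and the CDC25 phosphatases drive entry into mitosis. Polo, Aurora and related kinases build the spindle, and the spindle checkpoint holds the anaphase-promoting complex until kinetochores are attached, after which securin and cyclin B are destroyed and separase opens cohesin. The chromosomal passenger complex, the midzone motors and the cytokinesis factors then finish division. Many of these genes are transcribed in G2 through a promoter element called the CHR and through CCAAT boxes bound by NF-Y, are repressed by the DREAM complex, and are activated by B-MYB and FOXM1. p53 is known to lower many of them through p21, the product of Cdkn1a. Mouse ESCs divide fast and keep short gap phases. In bulk RNA, fewer cells in G2 and mitosis and less RNA per such cell cannot be told apart.

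Promoters of 36 of the 43 members were found in the RefSeq table of GRCm38.p6 as 300-base windows from 250 bases before to 50 bases after the transcription start. No window was in the table for Aurkb, Kif20a, Tpx2, Foxm1, Cdc25c, Ccna2 and Incenp. On either strand, TTTGAA was in 25 member windows (69.4%) against 18.1% of all 27025 windows, and TTCGAA in 4 (11.1%) against 1.57%. Either of these CHR letter strings was in 27 windows (75% against 19.4%), CCAAT in 27 (75% against 37.9%), and CCAAT together with a CHR string in 24 (66.7% against 7.7%). The E2F letter strings TTTCCCGC and TTTGGCGC were in none of the 36 windows, against 1.11% and 0.537% of all windows. A letter match is a description and not a bound site. Windows are shown for 6 genes that carry the results: the mitotic entry genes Ccnb1, Cdk1 and Plk1 and, chosen after their values were seen, Cdc20, Fbxo5 and Top2a. Each is written 5′ to 3′ on its gene's strand, and capitals mark CCAAT or TTTGAA or TTCGAA in either orientation (ATTGG and TTCAAA are the reversed forms).
Ccnb1 (chr13:100786437-100786736, minus strand): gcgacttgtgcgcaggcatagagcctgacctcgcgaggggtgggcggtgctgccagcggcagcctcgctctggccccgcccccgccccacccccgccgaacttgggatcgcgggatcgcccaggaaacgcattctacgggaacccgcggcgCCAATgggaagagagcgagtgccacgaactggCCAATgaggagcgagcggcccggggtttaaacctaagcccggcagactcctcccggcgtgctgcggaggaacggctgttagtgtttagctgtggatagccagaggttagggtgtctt
Cdk1 (chr10:69352863-69353162, minus strand): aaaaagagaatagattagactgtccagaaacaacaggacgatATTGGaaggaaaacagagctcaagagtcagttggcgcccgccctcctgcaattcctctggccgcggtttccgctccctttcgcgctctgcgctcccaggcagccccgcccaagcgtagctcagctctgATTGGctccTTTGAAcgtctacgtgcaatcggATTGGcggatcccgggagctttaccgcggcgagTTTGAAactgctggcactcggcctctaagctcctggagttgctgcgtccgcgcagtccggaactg
Plk1 (chr7:122159185-122159484, plus strand): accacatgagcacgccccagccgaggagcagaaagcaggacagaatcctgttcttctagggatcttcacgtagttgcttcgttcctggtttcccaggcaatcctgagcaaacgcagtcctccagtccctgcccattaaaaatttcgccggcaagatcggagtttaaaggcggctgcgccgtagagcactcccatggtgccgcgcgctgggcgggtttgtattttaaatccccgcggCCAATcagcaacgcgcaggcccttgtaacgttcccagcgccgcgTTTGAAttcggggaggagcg
Cdc20 (chr4:118437294-118437593, minus strand): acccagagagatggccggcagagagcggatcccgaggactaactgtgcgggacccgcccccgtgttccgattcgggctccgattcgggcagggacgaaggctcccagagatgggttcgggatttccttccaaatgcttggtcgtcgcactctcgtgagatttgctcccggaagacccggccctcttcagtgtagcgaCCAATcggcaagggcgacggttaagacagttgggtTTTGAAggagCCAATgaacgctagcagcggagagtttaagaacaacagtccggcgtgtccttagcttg
Fbxo5 (chr10:5805416-5805715, minus strand): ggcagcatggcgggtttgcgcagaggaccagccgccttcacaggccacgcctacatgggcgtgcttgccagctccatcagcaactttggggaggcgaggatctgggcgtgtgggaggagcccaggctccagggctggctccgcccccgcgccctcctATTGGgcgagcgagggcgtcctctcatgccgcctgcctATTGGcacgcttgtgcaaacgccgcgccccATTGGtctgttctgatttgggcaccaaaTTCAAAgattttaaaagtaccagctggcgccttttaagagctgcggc
Top2a (chr11:99024140-99024439, minus strand): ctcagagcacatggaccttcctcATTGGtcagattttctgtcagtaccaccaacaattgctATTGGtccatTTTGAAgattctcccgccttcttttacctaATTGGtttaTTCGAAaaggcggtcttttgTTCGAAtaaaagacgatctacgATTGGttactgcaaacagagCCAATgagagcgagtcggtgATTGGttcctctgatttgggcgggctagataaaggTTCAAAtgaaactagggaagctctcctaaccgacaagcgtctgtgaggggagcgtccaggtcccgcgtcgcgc
The Ccnb1 window held 2 CCAAT boxes and no CHR string. The Cdk1 window held 3 CCAAT boxes and TTTGAA beginning 71 and 15 bases before the start. In the Plk1 window TTTGAA lay past the start, with a CCAAT box 14 bases before it. The Top2a window held 6 CCAAT boxes and both CHR strings.

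Values are FPKM (fragments per kilobase of transcript, scaled to library depth) as the authors deposited them. Log2 changes are differences of log2(FPKM + 1) and understate changes of low genes. A gene was called when the adjusted p of limma, fitted over all genes of a table that reached 1 FPKM in at least the number of libraries of its smallest group, was under 0.05. The labels do not say that libraries came from separate cultures, so p-values measure only the spread between these libraries. The authors counted 14385912 and 22983179 mapped reads in the control ESC libraries, 17106179 in the first DDX18 knockdown library and 10836942 in 1 run of the second. The depth of the other libraries was not analysed here. Ddx18 checked the labels: it was at 84.6 and 89.1 FPKM in control ESCs and 9.94 and 8.52 after knockdown, fell in the same way in EZH2 KO ESCs (82.5 and 89.4 against 15.5 and 17.5) and p53 KO ESCs (36.9 and 49.7 against 3.08 and 3.87), and was at 11.04 and 21.99 in wild-type against 2.97 and 2.86 in DDX18 KO embryos. Ezh2 was at 4.12 and 2.92 in EZH2 KO controls and 28.1 to 33.6 in untreated ESCs of the ActD table. Its control means in ESCs were 55.2, 45.4 and 6.96 in the knockdown, CHX and CX-5461 tables. Trp53 transcripts were still counted in p53 KO ESCs, at 91.5 to 126 FPKM untreated and a mean of 226.5 after knockdown. In untreated ESCs of the ActD table Trp53 was at 246 to 260, and its control means in the other 3 ESC tables, in the same order, were 384, 253 and 41.1. The tables were normalised separately, so Ezh2 and Trp53 check the labels only loosely. The sources used here do not say which part of Trp53 was deleted. The p53 KO libraries of the ActD series have titles that say p53 KO beside a source label that says CJ9.

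In untreated ESCs of the ActD table the members were well expressed. Their median was 31.9 FPKM against 7.07 over the 12149 genes at 1 FPKM or more, and 35 of 43 reached 10 FPKM. Ube2c, the ubiquitin-conjugating enzyme of the anaphase-promoting complex, was highest at 157 FPKM, followed by Ccnb1, Cdc20, Birc5 and Top2a, and Mad2l1, the checkpoint inhibitor of CDC20, was lowest at 3.26. The median was 34.4 FPKM in untreated ESCs of the CHX table and 14.1 in those of the CX-5461 table. EZH2 KO controls had a median of 26.1 FPKM and p53 KO ESCs 36.1 in the ActD series and 17.2 in the knockdown series. Wild-type E3.5 embryos had a median of 7.41 FPKM, with Birc5 highest at 147 and Espl1 lowest at 0.272. The tables were normalised separately, so these levels are set side by side and were not tested against each other.

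**Figure D1:**
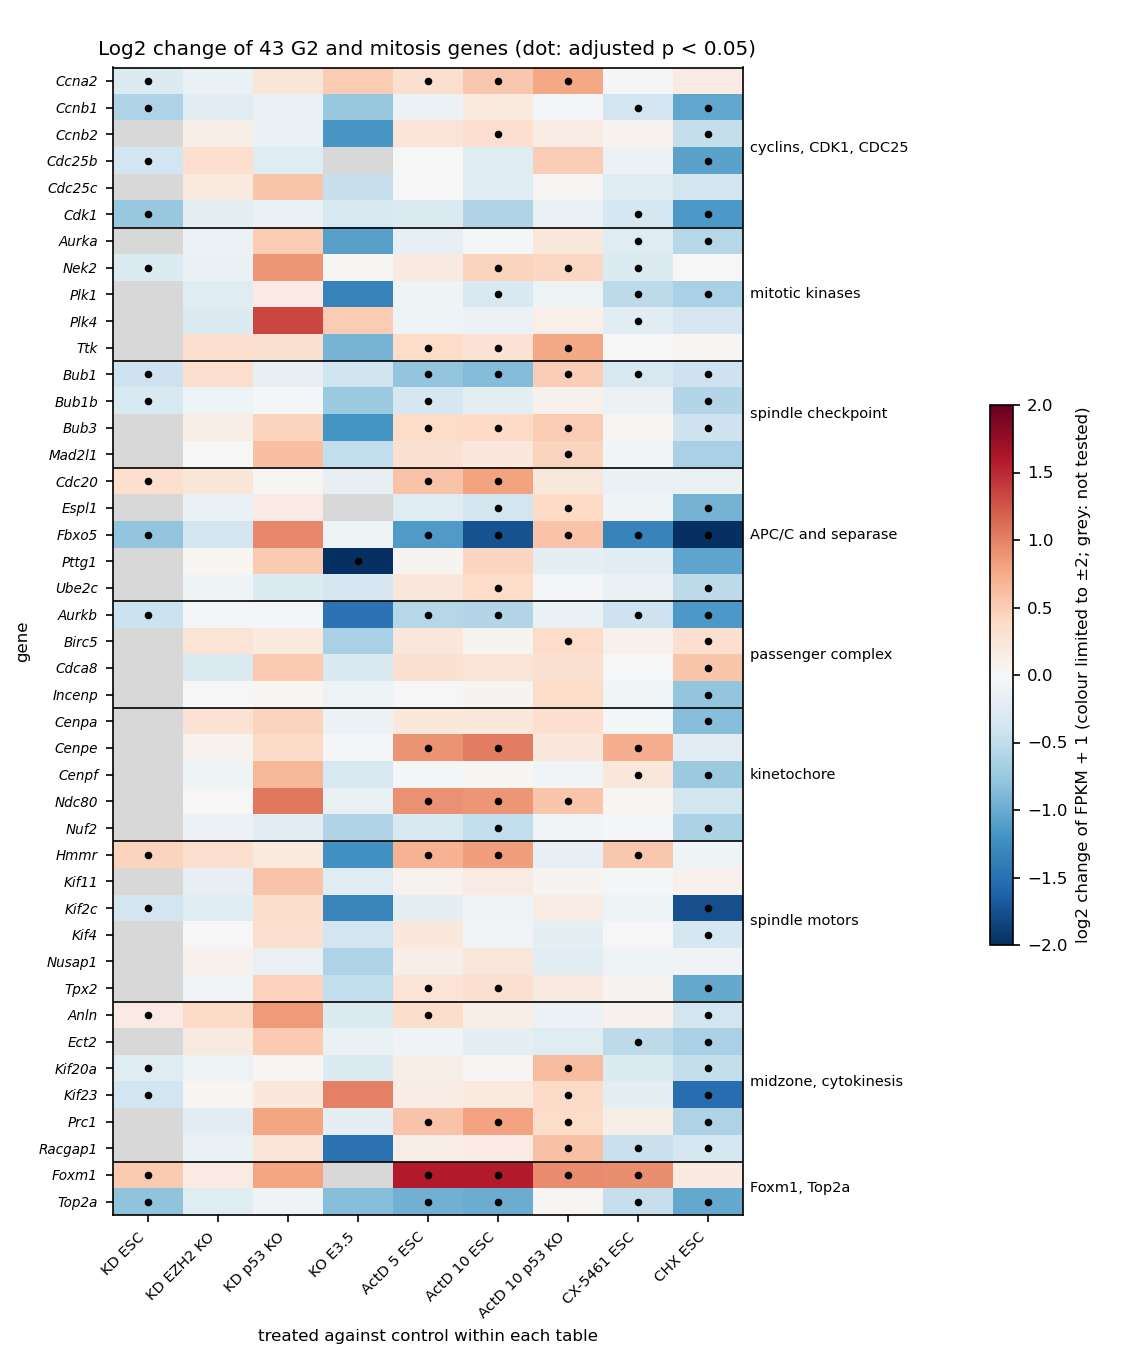
Log2 change of log2(FPKM + 1) for each of the 43 genes (rows, grouped by role) in 9 comparisons of treated with control libraries (columns), with blue lower, red higher, grey not tested, and a dot where the adjusted p was under 0.05. The CHX column is blue in 36 of 43 rows, and the knockdown columns in p53 KO and EZH2 KO ESCs hold no dot.

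The members did not move as a block in ESCs. With DDX18 knockdown 13 of the 17 listed members were called lower and 4 higher, in a table where 97.9% of all genes tested were called. With ActD at 10 ng/ml 13 of 43 were called higher and 7 lower, against 56.4% of all genes called. CX-5461 gave 4 higher and 12 lower, against 61.8%, and CHX gave 2 higher and 27 lower, against 53%. Aurkb, Bub1, Fbxo5 and Top2a were called lower with knockdown, ActD at 10 ng/ml, CX-5461 and CHX. Foxm1 and Hmmr were called higher with knockdown, ActD at 10 ng/ml and CX-5461, and neither was called with CHX. Only the 17 members listed for the knockdown could enter these sets. Of those not listed, Plk1 was called lower with ActD at 10 ng/ml, CX-5461 and CHX. Cenpe, also not listed, was called higher with ActD at 10 ng/ml and CX-5461. Aurkb, Bub1, Fbxo5, Top2a, Foxm1 and Hmmr are described here across all tables, and the other members follow comparison by comparison.

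Fbxo5 encodes EMI1, the inhibitor of the anaphase-promoting complex that lets cyclins build up in S and G2. With DDX18 knockdown it went from 35.03 and 35.4 FPKM in control ESCs to 18.7 and 21.2 (log2 change -0.79, SE 0.07, adjusted p = 5.8e-05). Across the ActD doses it was at 46.6, 27.9 and 27.8 untreated, 15.6 and 13.6 at 5 ng/ml (log2 change -1.13, SE 0.25, adjusted p = 0.011) and 10.7 and 7.93 at 10 ng/ml (log2 change -1.74, SE 0.25, adjusted p = 0.0014). Every treated library lay below every untreated one, although 1 untreated library stood well above the other two. The call at 5 ng/ml was lost without either library of that dose (adjusted p = 0.052 and 0.081). With CX-5461 the levels were 43.3, 44.6 and 46.3 untreated and 17.8, 17.1 and 16.7 treated (log2 change -1.33, SE 0.06, adjusted p = 2.2e-06), and with CHX 37.02 and 37.6 against 9.27 and 6.71 (log2 change -2.11, SE 0.15, adjusted p = 0.00081). The log2 changes with CX-5461 and with CHX were the lowest of the 43 in those tables. ActD in p53 KO ESCs gave the opposite direction, from 31.5 and 30.2 to 46.3 and 46.5 FPKM (log2 change 0.57, SE 0.09, adjusted p = 0.009). With rescaled libraries (each divided by its median ratio to an average library) that rise was 0.22 with an adjusted p of 0.13, and it was not called without either treated library.

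Top2a encodes topoisomerase II alpha, which untangles sister chromatids. It was at 109.8 and 112 FPKM in control and 66.7 and 59.5 in knockdown ESCs (log2 change -0.80, SE 0.06, adjusted p = 3.8e-05). With ActD it was at 75.4, 77.5 and 72.4 untreated, 37.9 and 38.3 at 5 ng/ml and 37.3 and 37.3 at 10 ng/ml (log2 change -0.99, SE 0.06, adjusted p = 4.2e-05). The 4 treated libraries were within 1.1 FPKM of each other, at about the same level for either dose. With CX-5461 it went from 25.3, 25.98 and 27.6 to 17.7, 20.6 and 18.2 (log2 change -0.46, SE 0.07, adjusted p = 0.0012) and with CHX from 115 and 112 to 55.8 and 54.2 (log2 change -1.03, SE 0.06, adjusted p = 0.00054). The untreated p53 KO libraries were at 112 and 124 and those with ActD at 118 and 122, which overlapped (log2 change 0.03, SE 0.09, adjusted p = 0.82).

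Aurkb, the Aurora kinase of the passenger complex, was at 25.3 and 25.04 FPKM in control and 18.1 and 18.8 in knockdown ESCs (log2 change -0.43, SE 0.06, adjusted p = 0.00032). With ActD its levels were 20.5, 20.2 and 19.8 untreated, 11.8 and 14.9 at 5 ng/ml and 13.9 and 12.2 at 10 ng/ml (log2 change -0.59, SE 0.12, adjusted p = 0.0064). CX-5461 took it from 10.8, 12.4 and 13.2 to 8.33, 9.34 and 8.98 (log2 change -0.41, SE 0.09, adjusted p = 0.0057). With CHX it went from 19.7 and 20.3 to 7.34 and 9.64 (log2 change -1.15, SE 0.14, adjusted p = 0.003). No library of a treated ESC group reached the range of its untreated libraries, but the ActD calls were lost without the first library at 5 ng/ml (adjusted p = 0.06) and without the second at 10 ng/ml (0.056). The p53 KO libraries were at 18.6 and 19.7 untreated and 18.6 and 16.1 with ActD (log2 change -0.14, SE 0.11, adjusted p = 0.38). Bub1, the checkpoint kinase that recruits other checkpoint proteins to kinetochores, was at 11.6 and 11.2 FPKM in control and 8.08 and 8.59 in knockdown ESCs (log2 change -0.41, SE 0.07, adjusted p = 0.00098). With ActD it was at 16.3, 10 and 8.296 untreated, 5.86 and 6.12 at 5 ng/ml and 5.48 and 5.796 at 10 ng/ml (log2 change -0.87, SE 0.26, adjusted p = 0.028). As for Fbxo5, 1 untreated library was high, and without a filter on low values the calls at 5 and 10 ng/ml were lost (adjusted p = 0.08 and 0.051), as they were without any 1 of the treated libraries (0.058 to 0.17). The call at 5 ng/ml was also lost without the second untreated library (0.066). CX-5461 took Bub1 from 8.31, 8.14 and 8.67 to 5.81, 6.25 and 7.64 (log2 change -0.32, SE 0.10, adjusted p = 0.028) and CHX from 15.1 and 12.4 to 9.902 and 10.02 (log2 change -0.42, SE 0.12, adjusted p = 0.039). It was called higher with ActD in p53 KO ESCs, from 10.9 and 10.8 to 15.8 and 15.5 (log2 change 0.49, SE 0.10, adjusted p = 0.02). That call was lost with rescaled libraries (log2 change 0.15, adjusted p = 0.3) and without either treated library.

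Foxm1, the transcription factor that activates G2 and mitosis genes, went the other way. It was at 17.8 and 17.96 FPKM in control and 25.6 and 26.4 in knockdown ESCs (log2 change 0.52, SE 0.06, adjusted p = 0.00014). With ActD it rose from 9.56, 11.9 and 13.9 to 36.5 and 37.1 at 5 ng/ml and 37.96 and 36.2 at 10 ng/ml (log2 change 1.59, SE 0.15, adjusted p = 0.00021). This log2 change was the highest of the 43 at either dose, and the doses gave overlapping levels. CX-5461 raised it from 7.57, 7.43 and 6.82 to 14.9, 14.5 and 14.8 (log2 change 0.93, SE 0.07, adjusted p = 2.1e-05). ActD also raised it in p53 KO ESCs, from 13.4 and 13.6 to 27.8 and 26.2 (log2 change 0.94, SE 0.10, adjusted p = 0.005), a call that held with rescaled libraries (0.60, adjusted p = 0.014) and was lost without either treated library. With CHX it was at 11.3 and 11.1 against 13.2 and 12.4, a difference that was not called (adjusted p = 0.16). Hmmr encodes a protein that binds spindle microtubules. It was at 44.7 and 46.6 FPKM in control and 62.2 and 62.7 in knockdown ESCs (log2 change 0.44, SE 0.05, adjusted p = 0.00016), and at 31.4, 43.4 and 38.98 untreated, 62.96 and 60.2 at 5 ng/ml and 66.5 and 69.02 at 10 ng/ml of ActD (log2 change 0.83, SE 0.13, adjusted p = 0.0022). CX-5461 raised it from 30.7, 32.7 and 32.7 to 45.6, 46.5 and 48.7 (log2 change 0.54, SE 0.05, adjusted p = 0.00012). The treated and untreated libraries did not overlap in any of these tables. Its level in p53 KO ESCs was 40.8 and 44.3 untreated and 38.8 and 36.8 with ActD, which was not called (log2 change -0.17, SE 0.09, adjusted p = 0.2).

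**Figure D2:**
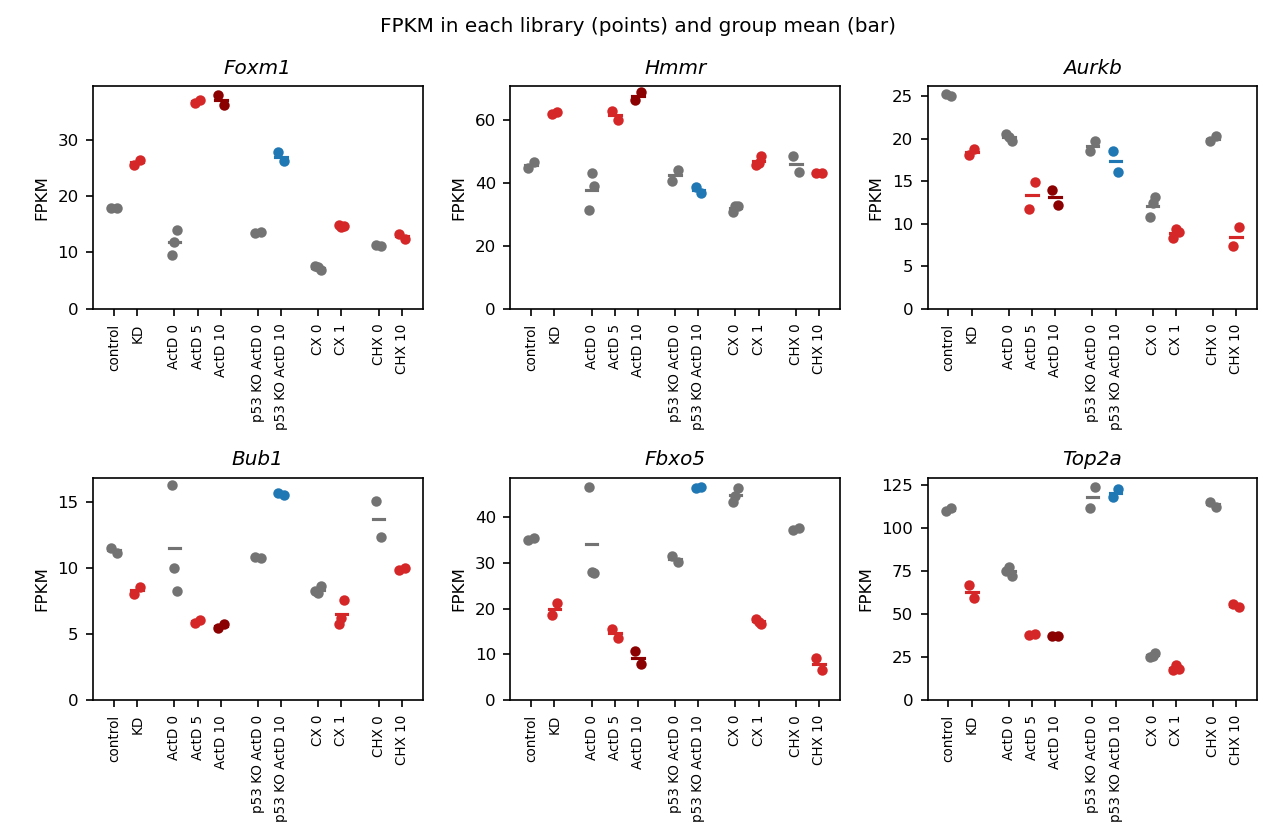
FPKM of Foxm1, Hmmr, Aurkb, Bub1, Fbxo5 and Top2a (a panel each, linear axis from 0) in every library (points) with the group mean (bar), for control and DDX18 knockdown ESCs and for untreated and treated libraries of the inhibitor tables. Fbxo5 lies between 7.93 and 10.7 with 10 ng/ml ActD in ESCs and at 46.3 and 46.5 in p53 KO ESCs.

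DDX18 knockdown in ESCs lowered the mitotic entry genes. Cdk1 went from 75.3 and 75.5 FPKM to 45 and 43.4 (log2 change -0.76, SE 0.05, adjusted p = 2e-05), Ccnb1 (cyclin B1) from 128 and 135 to 82.97 and 87.2 (log2 change -0.62, SE 0.05, adjusted p = 5.3e-05) and Ccna2 (cyclin A2) from 65.5 and 63.7 to 55.2 and 51.9 (log2 change -0.27, SE 0.05, adjusted p = 0.0024). Cdc25b, a phosphatase that activates CDK1, had a log2 change of -0.39 (adjusted p = 0.0012). All 4 knockdown values of Cdk1 and Ccnb1 lay far below the controls. The table for this comparison lists 4769 genes, of which 97.9% of those tested were called (55.2% higher and 42.6% lower). No label says how these genes came to be listed. The table holds 17 members, among them neither Plk1 nor any of the 5 centromere and kinetochore members, and all 17 were called, which says nothing of the 26 not listed. The median log2 change was -0.37 over the 17 and 0.30 over all genes tested, and -0.60 and 0.07 with rescaled libraries. Among the 13 lower members were also Bub1b (-0.31), Kif23 (-0.38), Kif2c (-0.37), Nek2 (-0.28) and Kif20a (-0.25). The other higher members were Cdc20, the activator of the anaphase-promoting complex, and Anln, an actin scaffold of the cleavage furrow. Cdc20 was at 93.7 and 95.7 against 117 and 123 (log2 change 0.34, SE 0.05, adjusted p = 0.00047), a call that rescaling ended (log2 change 0.10, adjusted p = 0.088), and Anln was at 36.8 and 35.9 against 40.4 and 40.9 (log2 change 0.16, SE 0.05, adjusted p = 0.02), which rescaling turned to -0.08 and which was lost without either control library (adjusted p = 0.067 and 0.12). Cdkn1a was at 26.0 FPKM in control and 86.5 in knockdown ESCs as group means. Trophectoderm markers, of which the table lists 5 of 8, summed to 32.6 to 36.0 FPKM in control and 149 to 182 in knockdown libraries, and the 5 listed pluripotency markers of 10 to 1426 to 1447 and 885 to 911. The part of these changes in the members' levels was not tested.

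In EZH2 KO ESCs limma called none of the 43 members with the same knockdown, where 8.49% of all genes tested were called (6.3% higher and 2.18% lower). With rescaled libraries these shares were 5.43% and 3.79%, with no member called. Before adjustment p was under 0.05 for 3 higher (Anln, Birc5 and Cdc20) and 2 lower (Cdca8 and Plk1), beside 3220 of all 11773 genes tested. Ube2c was at 274 and 253 FPKM in control and 247 and 251 in knockdown libraries (-0.08), Cdc20 at 186 and 170.5 against 209.8 and 211 (log2 change 0.24, SE 0.09, adjusted p = 0.15), and Plk1 at 97.03 and 98.9 against 82.4 and 81.8 (log2 change -0.25, SE 0.09, adjusted p = 0.13). The Plk1 and Cdc20 groups did not overlap, yet neither passed the threshold. Ccnb1 was at 28.5 and 23.8 against 25.9 and 18.7, Cdk1 at 32.2 and 35.5 against 34.6 and 24.7, and Ccna2 at 19.4 and 21.4 against 20.3 and 16.7, each overlapping. Foxm1 was at 28.6 and 25.6 against 30.8 and 30.2 (0.17), and Aurkb had a log2 change of -0.03. The median over the members was -0.03 and over all genes 0.09. Cdkn1a went from a mean of 43.9 to 135 FPKM, and the trophectoderm markers from sums of 36.9 to 45.3 to sums of 109 to 111, with 6 or 7 of 8 at 1 FPKM or more.

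With the knockdown in p53 KO ESCs limma also called none of 43, where 3.27% of all genes were called (2.63% higher and 0.636% lower). With rescaled libraries 1.3% of all genes were called, 0.311% higher and 0.993% lower, and again no member. Before adjustment p was under 0.05 for 9 of the 43 members, all higher, beside 3628 of all 11636 genes tested. The largest was Plk4, the kinase that starts centriole duplication, at 2.28 and 2.16 FPKM in control and 6.73 and 7.54 in knockdown libraries (log2 change 1.33, SE 0.25, adjusted p = 0.05, short of the threshold before rounding). Foxm1 was at 25.4 and 22.5 against 40.9 and 43.2 (log2 change 0.79, SE 0.19, adjusted p = 0.068) and Fbxo5 at 3.74 and 5.93 against 8.11 and 12.7 (log2 change 0.96, SE 0.32, adjusted p = 0.11). The knockdown libraries of these 3 genes lay above both controls. Ube2c was at 216 and 238 against 188 and 186 (-0.28), and Incenp, the scaffold of the passenger complex, at 196 and 138 against 159.6 and 181. Replicates of the entry genes were far apart, with Ccnb1 at 5.15 and 20.6 against 12.7 and 7.01 and Cdk1 at 15.2 and 30.1 against 22.9 and 16.3. Ccna2 had a log2 change of 0.24, Plk1 of 0.17 and Aurkb of -0.02, none called. The median over the members was 0.30 and over all genes 0.34, and with rescaled libraries -0.03 and 0.02. With a filter of 5 FPKM 3 members were called higher, and the share of all genes called under that filter is not given here. Cdkn1a was at means of 5.61 and 12.4 FPKM and was not called. Sums of trophectoderm markers ran from 95 to 109 in control and from 154 to 207 in knockdown libraries. Of these markers only Tfap2c was called, at means of 13.5 and 66.6 FPKM. Krt18 was at 41.25 and 64.6 and Krt8 at 25.9 and 30.1, while Hand1 was lower at 10.3 and 6.78. Eomes was at 4.09 and 3.51.

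The difference between genotypes in the knockdown effect was tested gene by gene. Both comparisons with ESCs cover only genes listed for the ESC knockdown, where 97.9% of those tested were called. A listing by change in ESCs would favour larger effects there, and this was not tested. Between ESCs and p53 KO ESCs it passed the threshold for 4 of 17 members, against 24.7% of all genes tested (11.8% higher and 12.9% lower in ESCs). The knockdown effect was lower in ESCs for Fbxo5, by a difference of -1.75 (SE 0.35, adjusted p = 0.016), for Nek2, a kinase of centrosome separation, -1.16 (SE 0.15, adjusted p = 0.0058), for Top2a, -0.73 (SE 0.20, adjusted p = 0.042), and for Kif2c, a kinesin that depolymerises microtubules at centromeres, -0.71 (SE 0.14, adjusted p = 0.017). Leaving out any 1 of the ESC libraries left 1 call. Between ESCs and EZH2 KO ESCs it passed for Cdc25b, -0.71 (SE 0.14, adjusted p = 0.016), Top2a, -0.55 (SE 0.14, adjusted p = 0.035), Kif23, a kinesin of the central spindle, -0.42 (SE 0.11, adjusted p = 0.036), and Aurkb, -0.40 (SE 0.11, adjusted p = 0.04), that is 4 of 17 against 20.6% of all genes (10.3% higher and 10.3% lower). With rescaled libraries 7 members were called, all lower in ESCs, against 6.91% of all genes higher and 20% lower, so the all-gene balance turned with the scaling. Without a variance trend 1 member was called. None of the 4 was called without any 1 of the ESC libraries. Between EZH2 KO and p53 KO ESCs it passed for Plk4 of 43, -1.61 (SE 0.27, adjusted p = 0.045), against 1.39% of all genes (0.657% higher and 0.735% lower). Rescaling ended that call (-1.37, adjusted p = 0.064) and left 1.21% of all genes higher and 0.243% lower. The call was also lost without any 1 of the 8 libraries other than knockdown replicate 2 of the p53 KO ESCs, without which 2 members were called.

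**Figure D3:**
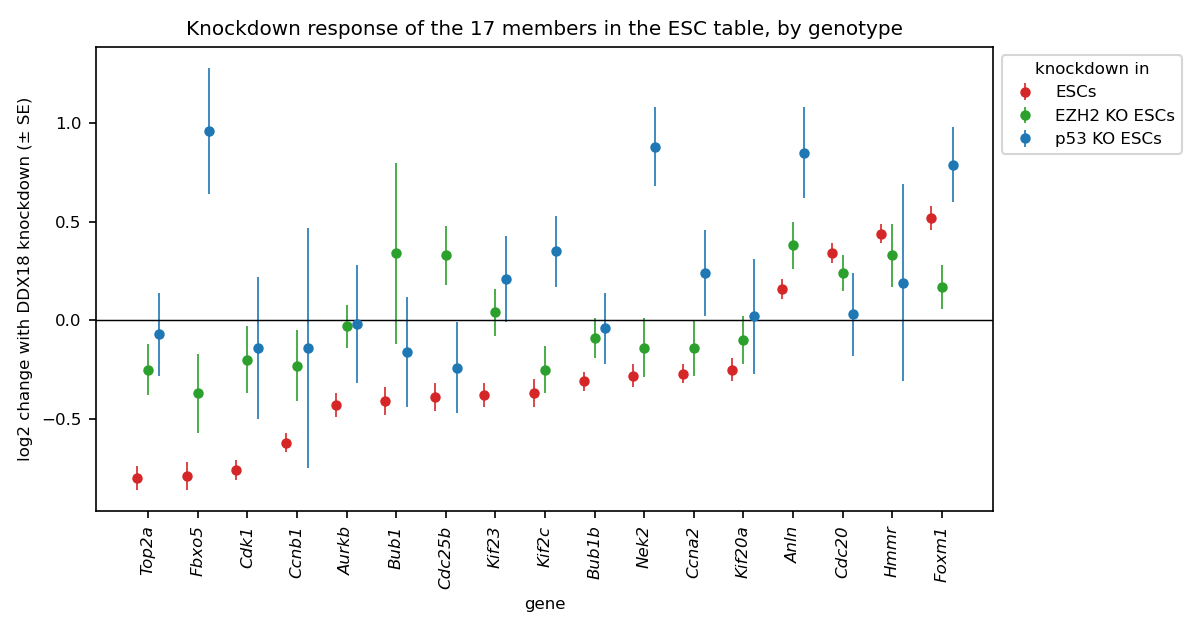
Log2 change with DDX18 knockdown (y axis, with SE bars) of the 17 members listed in the ESC table (x axis), in ESCs (red), EZH2 KO ESCs (green) and p53 KO ESCs (blue). Fbxo5 is at -0.79 in ESCs and 0.96 in p53 KO ESCs.

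In E3.5 embryos 36 of the 40 members tested had lower values in DDX18 KO than in wild-type libraries, but the test called 1 of 40, against 5.18% of all genes (0.633% higher and 4.55% lower, or 0.522% and 1.4% with rescaled libraries). Pttg1, which encodes securin, was at 19.8 and 20.4 FPKM in wild-type and 1.803 and 0.658 in KO embryos (log2 change -3.29, SE 0.40, adjusted p = 0.023). The libraries were far apart between groups, but the call was lost with a pseudocount of 0.1 (adjusted p = 0.051), with no filter on low values (0.19) and without any 1 library (0.12 to 0.25). Aurkb was at 7.502 and 4.78 against 2.54 and 0.802 (log2 change -1.47, SE 0.47, adjusted p = 0.11), Plk1 at 7.36 and 3.898 against 2.26 and 0.982 (log2 change -1.33, SE 0.46, adjusted p = 0.13) and Ccnb1 at 46.02 and 25.3 against 20.6 and 18.9 (log2 change -0.76, SE 0.35, adjusted p = 0.23). For these 3 genes both KO libraries were below both wild-type libraries, and none was called. Cdk1 overlapped, at 22.3 and 10.6 against 14.9 and 9.9, and Ccna2 was at 34.7 and 19.6 against 36.7 and 38.4 (log2 change 0.51). Foxm1, Cdc25b and Espl1 were under the filter, with Foxm1 at 0.645 and 1.25 and, in KO embryos, listed at 0 and 0.188. The median over the members was -0.39, over all genes -0.31, and with rescaled libraries -0.19 and -0.07. Cdkn1a was at means of 4.54 and 40.6 FPKM. The trophectoderm markers summed to 206 to 210 in wild-type and 52.1 to 65.0 in KO embryos, with 5 or 6 of 8 at 1 FPKM or more, the pluripotency markers to 2498 to 3323 and 1257 to 2046, and the primitive endoderm markers to 47.8 to 62.0 and 23.7 to 28.7, while the 8 fibroblast markers were at 0 in every library. Most of the fall in the trophectoderm sum was Krt8, at means of 88.5 and 9.41 FPKM, and Krt18, at 64.3 and 10.7, both called lower. Gata3, Cdx2 and Eomes had lower means and were not called. Tfap2c (9.1 and 11.3) and Hand1 (0.2 and 0.85) had higher means in KO embryos, and neither was called. Most of the fall in the pluripotency sum was Dppa5a, at means of 2642 and 1592 FPKM and not called. Nanog was called lower, at 128 and 2.32, and Esrrb alone of these markers had a higher mean in KO embryos (2.22 and 4.19). Most of the fall in the primitive endoderm sum was Dab2, at 39.1 and 12.8 and not called, beside Gata6 at 14.1 and 12.2. What part the mix of cell types had in the members' values was not tested.

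ActD in ESCs raised some mitotic genes and lowered others. At 5 ng/ml 11 members were called higher and 5 lower, against 49% of all genes (32.9% higher and 16.1% lower), and at 10 ng/ml 13 higher and 7 lower, against 56.4% (36.4% and 20%). The members' median log2 change was 0.12 at 5 ng/ml and 0.16 at 10 ng/ml, beside 0.24 and 0.25 over all genes. With rescaled libraries, which moved the medians of all genes to 0.13 and 0.15, the calls were 7 higher and 8 lower at 5 ng/ml and 9 higher and 9 lower at 10 ng/ml, so the members' balance of directions depends on the scaling. Of all genes 28.4% were then called higher and 20% lower at 5 ng/ml, and 32.8% and 22.8% at 10 ng/ml. The doses share their untreated libraries and are given side by side.

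Cenpe, a kinetochore kinesin that moves chromosomes to the spindle equator, was at 10.8, 12.3 and 9.997 FPKM untreated, 22.1 and 20.5 at 5 ng/ml and 22.4 and 24.2 at 10 ng/ml (log2 change 1.02, SE 0.11, adjusted p = 0.0004). Ndc80, a subunit of the complex that binds kinetochores to microtubules, was at 7.54, 10.9 and 9.25 untreated, 18.4 and 18.1 at 5 ng/ml and 18.6 and 16.9 at 10 ng/ml (log2 change 0.89, SE 0.15, adjusted p = 0.0029). Cdc20 was at 112, 84.7 and 93.8 untreated, 139 and 147 at 5 ng/ml and 173 and 164 at 10 ng/ml (log2 change 0.80, SE 0.12, adjusted p = 0.0014). For each of them all treated libraries were above all untreated ones. Prc1, which bundles midzone microtubules, was at 38.03, 33.4 and 32.6 untreated, 54.5 and 49.3 at 5 ng/ml and 63.8 and 58.5 at 10 ng/ml (log2 change 0.80, SE 0.10, adjusted p = 0.00061), and Ccna2 at 42.6, 43.6 and 44.98 untreated, 57.2 and 52.4 at 5 ng/ml and 65.5 and 63.03 at 10 ng/ml (log2 change 0.54, SE 0.07, adjusted p = 0.00077). Bub3, Ccnb2, Nek2, Tpx2, Ttk and Ube2c were the other members called higher at 10 ng/ml, with log2 changes of 0.29 to 0.44. At 5 ng/ml the members called higher were Foxm1, Hmmr, Cenpe, Ndc80, Cdc20, Prc1 and Ccna2, with Anln, Bub3, Tpx2 and Ttk (0.27 to 0.37), while the call of Ccna2 (0.32) was lost with rescaling (0.18, adjusted p = 0.082) and without the first library at 5 ng/ml, and that of Cdc20 (0.57) without the second (adjusted p = 0.064). Bub1b, a checkpoint kinase homologue, was called lower at 5 ng/ml with a log2 change of -0.34 (adjusted p = 0.015), a call lost without either library of that dose, and was at -0.19 (adjusted p = 0.089) at 10 ng/ml.

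Plk1, a kinase of spindle assembly and mitotic entry, was at 69.2, 62.8 and 67.7 untreated, 59.7 and 64.8 at 5 ng/ml (-0.09, not called) and 54.4 and 53.2 at 10 ng/ml (log2 change -0.30, SE 0.07, adjusted p = 0.012). Nuf2, the partner of Ndc80, was at 9.095, 8.15 and 8.46 untreated, 6.74 and 6.69 at 5 ng/ml and 5.58 and 6.04 at 10 ng/ml (log2 change -0.49, SE 0.11, adjusted p = 0.0092), so these subunits of 1 complex were called in opposite directions at 10 ng/ml. Espl1, separase, had a log2 change of -0.36 (adjusted p = 0.017) at 10 ng/ml. Ccnb1 was not called at either dose, at 88.5, 104 and 101 untreated, 95.2 and 84.9 at 5 ng/ml and 119 and 106 at 10 ng/ml (-0.12 and 0.20). Cdk1 was at 28.2, 46.1 and 47.4 untreated, 32.2 and 32.03 at 5 ng/ml and 25.7 and 25.8 at 10 ng/ml (-0.29 at 5 ng/ml and log2 change -0.60, SE 0.22, adjusted p = 0.054 at 10 ng/ml). The first of these untreated libraries stood apart from the others for Cdk1, Fbxo5 and Bub1, and without it the Cdk1 change passed the threshold at both doses (-0.53 with an adjusted p of 0.00045, and -0.84 with 5.1e-05). Without that library there were 13 higher and 9 lower at 5 ng/ml and 14 higher and 10 lower at 10 ng/ml. Leaving out the first or the second library of a dose gave 7 or 10 calls at 5 ng/ml and 13 at 10 ng/ml. The Plk1 call was lost without either library at 10 ng/ml (adjusted p = 0.056 and 0.074), that of Nuf2 without the first (0.074) and that of Espl1 without the second (0.11). Between 10 and 5 ng/ml limma called none of the 43, against 2.95% of all genes (1.47% higher and 1.47% lower), with 2 higher (Ccna2 and Ccnb1) and 2 lower (Anln and Plk1) at an unadjusted p under 0.05, and called 2 lower, Cdk1 among them (-0.31), without that first untreated library. Ube2c and Cdc20, the members with the highest levels at these doses, differed by 0.13 and 0.24 between them. Cdkn1a was at means of 29.8 FPKM untreated, 148.5 at 5 ng/ml and 174 at 10 ng/ml. The trophectoderm markers summed to 32.9 to 60.7 untreated, 893 to 902 at 5 ng/ml and 670.1 to 695 at 10 ng/ml (7 of 8 at 1 FPKM or more with ActD), and the pluripotency markers to 2776 to 3026, 652 to 658 and 387 to 388. The 6 blood cell markers, of which 1 or 2 reached 1 FPKM, summed to 26.7 to 36.2, 118 to 128 and 183 to 186. Nearly all of that sum was Cd68, at means of 32.3 FPKM untreated, 122 at 5 ng/ml and 183 at 10 ng/ml. Ptprc, Lyz2, Hbb-bs and Hbb-bt were at or near 0 throughout, so the sum follows Cd68 and not the list. The part of these marker changes in the members' changes was not tested. The column names carry a tag that the sources used here do not explain, and no treated library of this table shares its tag with an untreated one.

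In p53 KO ESCs the same 10 ng/ml of ActD gave 15 members called higher and none lower, against 37% of all genes (32.7% higher and 4.33% lower). Besides Foxm1, Fbxo5 and Bub1, Ttk, a checkpoint kinase, went from 12.2 and 13.1 to 21.9 and 23.1 FPKM (log2 change 0.78, SE 0.10, adjusted p = 0.0071), Ccna2 from 65.02 and 78.9 to 124 and 121 (log2 change 0.77, SE 0.11, adjusted p = 0.0088), Kif20a, a midzone kinesin, from 31.3 and 35.5 to 53.1 and 52.3 (log2 change 0.64, SE 0.10, adjusted p = 0.0094) and Racgap1, the partner of Kif23 in the central spindle, from 30.9 and 35.6 to 48.97 and 51.3 (log2 change 0.58, SE 0.10, adjusted p = 0.014). No treated library of these genes overlapped an untreated one. Birc5, Bub3, Espl1, Kif23, Mad2l1, Ndc80, Nek2 and Prc1 were called with log2 changes of 0.36 to 0.56. Ccnb1 was at 127 and 145 against 129 and 135 (-0.04), Cdk1 at 56.3 and 58.7 against 48.6 and 55.9 (-0.14) and Plk1 at 88.98 and 91.1 against 79.8 and 87.8 (-0.10), none called. The median was 0.21 over the members and 0.35 over all genes. With rescaled libraries, which moved the median of all genes to 0.04, 4 members stayed called higher (Ccna2, Foxm1, Kif20a and Ttk) and 13 were called lower, among them Aurkb (-0.48), Ccnb1 (-0.40), Cdk1 (-0.50) and Plk1 (-0.47), so the common direction depends on the scaling. Over all genes rescaling gave 23.6% called, 11.6% higher and 12% lower. Without either treated library no member was called, and without the first untreated library 6 were. Within the libraries that share a tag in their column names, 2 treated against 1 untreated, the members' median was 0.10, with 27 above 0 and 16 below. Cdkn1a was at means of 6.20 and 8.04 FPKM and was not called. The trophectoderm markers summed to 35.5 to 36.6 and 61.1 to 61.7, and the pluripotency markers to 2141 to 2250 and 1839 to 1966.

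The ActD effect at 10 ng/ml differed between ESCs and p53 KO ESCs for 13 of 43 members, against 39.3% of all genes (18% higher in ESCs and 21.3% lower). It was lower in ESCs for 8. Fbxo5 differed by -2.31 (SE 0.32, adjusted p = 0.00065), Bub1 by -1.36 (SE 0.33, adjusted p = 0.011) and Top2a by -1.02 (SE 0.09, adjusted p = 7.3e-05). Espl1 had a difference of -0.76, Cdc25b of -0.74, Kif20a of -0.63, Ttk of -0.49 and Racgap1 of -0.42. It was higher in ESCs for Hmmr, by 1.00 (SE 0.18, adjusted p = 0.0024), Cenpe, by 0.81 (SE 0.14, adjusted p = 0.0022), Foxm1, by 0.64 (SE 0.19, adjusted p = 0.027), Cdc20, by 0.58 (SE 0.16, adjusted p = 0.018), and Prc1, by 0.43 (SE 0.12, adjusted p = 0.022). Rescaling kept 5 of the 8 lower and all 5 higher differences, and ended the calls of Cdc25b (-0.51), Racgap1 (-0.17) and Ttk (-0.25). Rescaled, 12 members were higher in ESCs and 5 lower, against 22.5% and 15.3% of all genes, so the balance again depends on the scaling. Without the first treated ESC library, or without the second treated p53 KO library, 8 members were called (2 higher and 6 lower), and the calls of Cdc20, Cdc25b, Foxm1, Prc1 and Racgap1 were each lost in at least 1 such fit. No difference was called for Ccnb1, at 0.24 (SE 0.14, adjusted p = 0.23), Cdk1, at -0.46 (SE 0.29, adjusted p = 0.24), or Plk1, at -0.20 (SE 0.10, adjusted p = 0.17). The genotypes are in separately normalised tables, so a shift of all genes in a table enters each difference, and the median difference was -0.20 over the members and -0.11 over all genes.

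**Figure D4:**
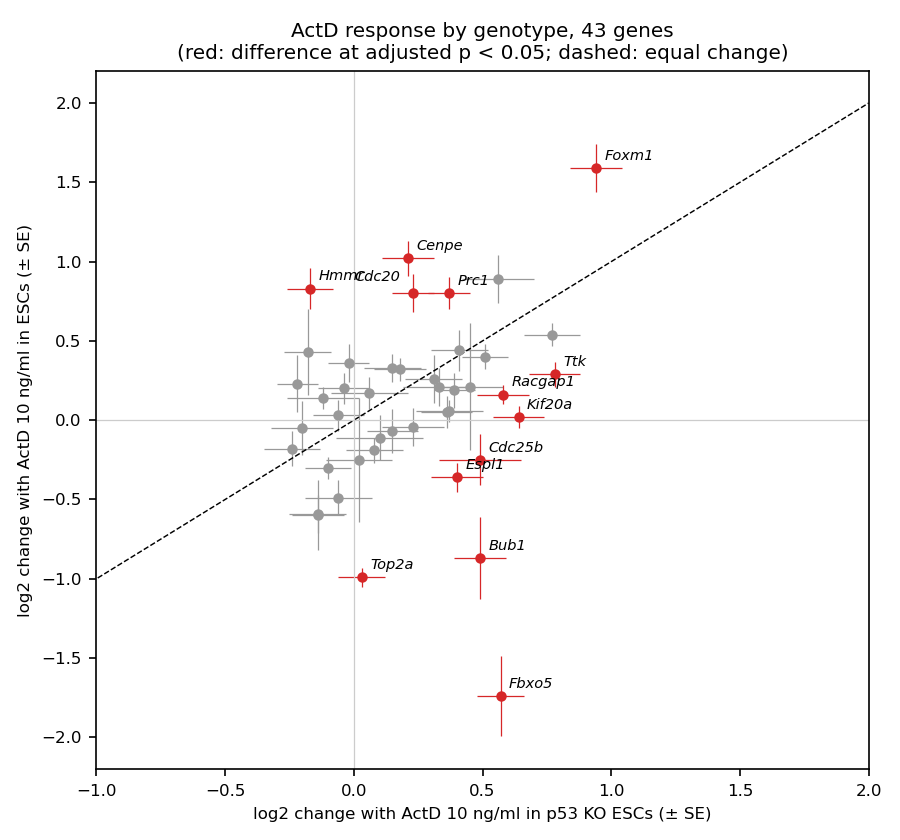
Log2 change with 10 ng/ml ActD in ESCs (y axis) against that in p53 KO ESCs (x axis) for the 43 members, with SE bars and a dashed line of equal change, in red where the difference had an adjusted p under 0.05. Fbxo5, at 0.57 in p53 KO ESCs and -1.74 in ESCs, lies farthest below the line, and Hmmr, at -0.17 and 0.83, farthest above it.

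CX-5461 lowered 12 of the 43 members and raised 4, against 61.8% of all genes called (32.9% higher and 28.9% lower). Among the entry genes, Ccnb1 went from 54.2, 53.9 and 54.4 to 43.7, 37.1 and 43.8 FPKM (log2 change -0.38, SE 0.07, adjusted p = 0.0031) and Plk1 from 10.4, 10.8 and 13.6 to 6.87, 7.67 and 8.48 (log2 change -0.53, SE 0.12, adjusted p = 0.0058). Cdk1 went from 10.8, 14.8 and 12.5 to 9.91, 9.43 and 9.69 (log2 change -0.35, SE 0.11, adjusted p = 0.025), a call that was lost with no filter on low values (adjusted p = 0.056) and without any 1 library other than the first untreated one (0.052 to 0.067). Ccna2 was at 41.6, 46.6 and 43.3 against 41.98, 42.4 and 43.2 and was not called (-0.04). Of the 5 mitotic kinases, Aurka (-0.25), Nek2 (-0.28), Plk1 and Plk4 (-0.22) were called lower and Ttk was not called (0.00). Ect2, the exchange factor that switches on RhoA at the cleavage plane, went from 18.4, 21.2 and 19.3 to 13.4, 12.1 and 14.2 (log2 change -0.53, SE 0.08, adjusted p = 0.0011), and its binding partner Racgap1 from 14.95, 14.7 and 15.99 to 9.91, 11.9 and 10.8 (log2 change -0.45, SE 0.08, adjusted p = 0.0021). The groups did not overlap for any of these called genes. On the higher side, beside Foxm1 and Hmmr, were Cenpe, from 9.33, 8.52 and 8.95 to 14.7, 15.96 and 15.5 (log2 change 0.72, SE 0.07, adjusted p = 7.5e-05), and Cenpf, a large kinetochore protein, from 23.9, 23.3 and 22.8 to 27.5, 28.5 and 26.9 (log2 change 0.23, SE 0.05, adjusted p = 0.0072). The median was -0.08 over the members and 0.03 over all genes, and leaving out single libraries gave 13 to 15 calls. Cdkn1a was at means of 9.31 and 69.7 FPKM. The trophectoderm markers summed to 13.7 to 15.9 untreated and 165 to 167 treated (7 of 8 at 1 FPKM or more), and the pluripotency markers to 1790 to 1956 and 746 to 845, and their part in the members' changes was not tested.

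CHX lowered most of the set. It called 27 of 43 members lower and 2 higher, against 53% of all genes, of which 33.2% were higher and 19.8% lower. The median was -0.52 over the members and 0.12 over all genes, and 36 of 43 values were below 0. With rescaled libraries 30 were called lower and 2 higher, and without any 1 library 22 to 26 were called. After rescaling 29.1% of all genes were called higher and 24% lower. In the libraries that share a tag in their column names, 1 of each kind, the members' median was -0.53 and 35 of 43 fell below 0.

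By role, CHX lowered 4 of the 6 cyclins, CDK1 and CDC25 genes. Cdk1 went from 50.01 and 51.98 to 23.8 and 21.2 FPKM (log2 change -1.15, SE 0.09, adjusted p = 0.00085) and Ccnb1 from 122 and 142 to 64.4 and 62.5 (log2 change -1.04, SE 0.09, adjusted p = 0.0012). Cdc25b had a log2 change of -1.07 (adjusted p = 0.0033) and Ccnb2 of -0.48 (adjusted p = 0.0083). Ccna2 did not go with them, at 60.3 and 71.4 untreated and 73.1 and 74.3 treated (0.17, not called). Of the 5 kinases, Plk1 (51.98 and 49.4 against 32.3 and 31.3, log2 change -0.65, SE 0.07, adjusted p = 0.0021) and Aurka (-0.57) were called lower. Bub1, Bub1b and Bub3 were called lower among the 4 checkpoint genes, and Fbxo5, Ube2c and Espl1 among the 5 genes of the anaphase-promoting complex and separase. Cenpa, Cenpf and Nuf2 were lower among the 5 centromere and kinetochore genes, with log2 changes of -0.85, -0.74 and -0.64.

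The microtubule motors and the cytokinesis genes held some of the largest falls. Kif2c went from 34.5 and 34.3 to 9.38 and 9.47 FPKM (log2 change -1.76, SE 0.08, adjusted p = 0.00033) and Kif23 from 34.3 and 31.3 to 11.4 and 10.1 (log2 change -1.52, SE 0.10, adjusted p = 0.00068). Tpx2, which activates Aurora A on the spindle, went from 60.4 and 60.7 to 28.7 and 30.05 (log2 change -1.02, SE 0.07, adjusted p = 0.00069). All treated libraries of these genes were below all untreated ones. All 6 midzone and cytokinesis genes were called lower, from -1.52 for Kif23 to -0.35 for Racgap1, whereas of the 6 spindle motors and microtubule factors Kif11, Hmmr and Nusap1 were not called.

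The passenger complex was split by CHX. Aurkb and Incenp (from 65.4 and 63.8 to 36.8 and 36.98 FPKM, log2 change -0.79, SE 0.06, adjusted p = 0.001) were called lower. Cdca8, which encodes borealin, rose from 71.2 and 70.9 to 107 and 103 (log2 change 0.56, SE 0.06, adjusted p = 0.0023), and Birc5, which encodes survivin, from 85.3 and 83.7 to 109.7 and 103 (log2 change 0.33, SE 0.07, adjusted p = 0.012). The Birc5 call was lost without a variance trend (adjusted p = 0.054), without the second untreated library (0.053) and without the first treated one (0.07). Bub3, Ccnb2, Prc1, Tpx2 and Ube2c were called lower with CHX and higher with 10 ng/ml ActD. Cdkn1a was at means of 34.9 and 121.6 FPKM with CHX. The trophectoderm markers summed to 28.6 to 33.7 and 20.7 to 25.5 (3 or 4 of 8 at 1 FPKM or more in either group), and the pluripotency markers to 2480 to 2535 and 1441 to 1464, and their part was not tested. Of the member promoters with a window, 21 of the 23 called lower with CHX held TTTGAA or TTCGAA, 1 of the 2 called higher, and 5 of the 11 not called. Either string was in 75% of the member windows and 19.4% of all windows. With 10 ng/ml ActD the shares were 8 of 10 called higher, 5 of 6 called lower and 14 of 20 not called. With CX-5461 they were 2 of 3 higher, 8 of 11 lower and 17 of 22 not called. ActD in p53 KO ESCs gave 9 of 12 called higher and 18 of 24 not called. No share was tested.

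**Figure D5:**
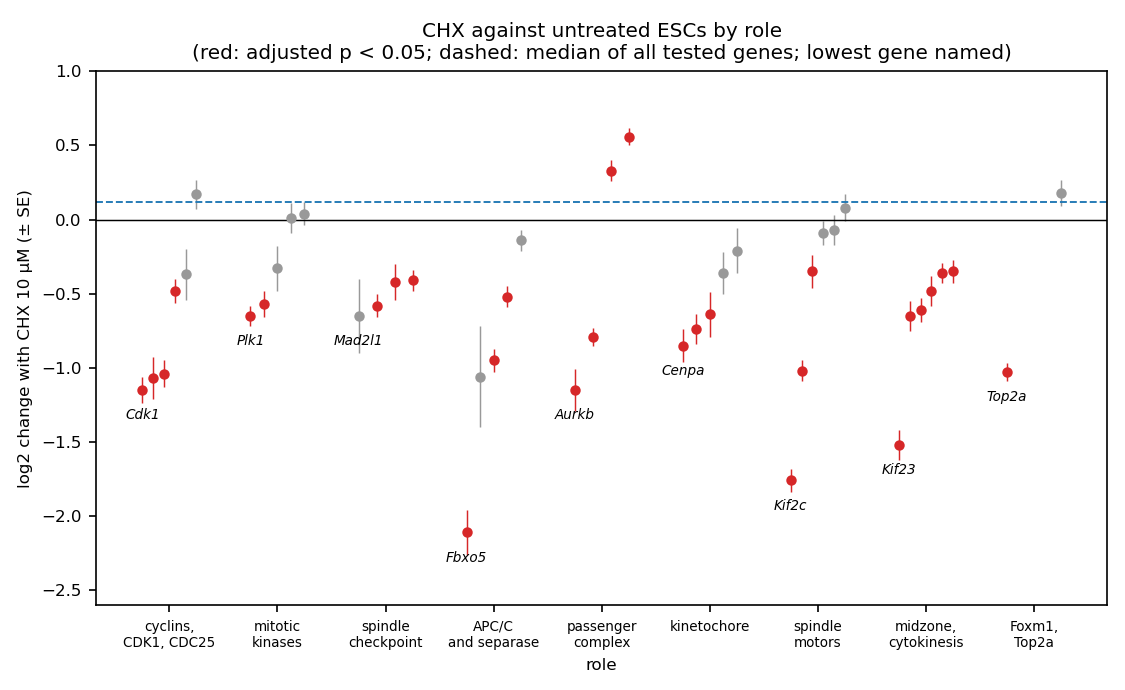
Log2 change with 10 µM CHX (y axis, with SE bars) of the 43 members by role (x axis), in red where the adjusted p was under 0.05, with the lowest member of each role named and a dashed line at the median of all genes tested (0.12). All 6 midzone and cytokinesis genes are below 0, and the 2 red points above 0 are Cdca8 and Birc5.

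Other genes of the G2 and mitosis machinery were taken from lists by function. Of 30 other kinetochore and centromere genes tested with CHX 9 were called higher and 11 lower, of 24 other spindle, motor and cytokinesis genes 3 and 14, of 17 condensin, cohesin and shugoshin genes 3 and 5, of 14 other genes of the anaphase-promoting complex 6 and 3, and of 15 other G2 and M regulators 4 and 10. The 43 members had 2 and 27, beside 33.2% of all genes called higher and 19.8% lower, and no difference between lists was tested. Cep55, a factor of the last cut between daughter cells, went from a mean of 31.8 to 8.73 FPKM with CHX (-1.75 (adjusted p = 0.00045)), and Cks2, a small subunit of CDK complexes, from 91.4 to 26.6 (-1.75 (adjusted p = 0.00045)). Gtse1, a protein of G2 that binds microtubules, rose with CHX from 95.3 to 207 (1.11 (adjusted p = 0.00045)) and was also higher with CX-5461 (0.84), with 10 ng/ml ActD (1.30) and with knockdown in ESCs (0.78).

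With 10 ng/ml ActD in ESCs the counts of higher and lower calls were 9 and 5 of 30 kinetochore, 7 and 8 of 25 spindle, 2 and 7 of 17 condensin and cohesin, 4 and 6 of 14 anaphase-promoting complex and 4 and 2 of 15 regulator genes. With CX-5461 they were 14 and 5 of 30, 7 and 9 of 25, 1 and 6 of 17, 4 and 6 of 14, and 4 and 6 of 15. In p53 KO ESCs with ActD they were 9 and 0 of 30, 6 and 0 of 24, 4 and 1 of 17, 6 and 0 of 14, and 1 and 0 of 15. Over all genes 36.4% were called higher and 20% lower with 10 ng/ml ActD in ESCs, and 32.9% and 28.9% with CX-5461. In p53 KO ESCs with ActD the shares were 32.7% and 4.33%, or 11.6% and 12% with rescaled libraries. The counts of the lists are given without rescaling. Kif18b, a kinesin at microtubule plus ends, was called higher in all of these comparisons, at means of 32.7 and 124 FPKM with ActD in ESCs (1.89 (adjusted p = 5.3e-06)), 15.2 and 32.9 with ActD in p53 KO ESCs (1.06 (adjusted p = 0.0046)) and 3.96 and 15.7 with CX-5461 (1.76 (adjusted p = 7.2e-06)). It was also called higher with knockdown in ESCs (1.31 (adjusted p = 2.4e-05)), EZH2 KO ESCs (0.56 (adjusted p = 0.023)) and p53 KO ESCs (1.28 (adjusted p = 0.048)) and with CHX (0.99 (adjusted p = 0.00082)). With knockdown the calls of higher and lower genes over these 5 lists were 4 and 3 of 7, 6 and 3 of 9, 1 and 3 of 4, 2 and 4 of 6, and 2 and 4 of 6 listed in ESCs. They were 1 and 0 of 27, 1 and 0 of 23, 0 of 17, 1 and 0 of 13, and 0 of 14 in EZH2 KO ESCs, and 1 and 1 of 27, 1 and 0 of 23, and none of the others in p53 KO ESCs. All genes gave 55.2% and 42.6% in ESCs, 6.3% and 2.18% in EZH2 KO ESCs, and 2.63% and 0.636% in p53 KO ESCs. In the embryos 2 of 27 kinetochore and centromere genes were called lower, Cenpw (-2.22) and Spc24 (-2.18), and none of the other 4 lists. Of all genes tested in the embryos 0.633% were called higher and 4.55% lower.

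Among 19 factors of the DREAM, RB and E2F families, which bind the promoters of such genes, Mybl2 (B-MYB) fell with 10 ng/ml ActD from a mean of 204 to 22.3 FPKM (-3.14 (adjusted p = 4.4e-06)) and with CX-5461 from 32.9 to 13.3 (-1.25 (adjusted p = 1.8e-05)). Smaller falls of Mybl2 were called with CHX (-0.35) and with ActD in p53 KO ESCs (-0.36). With DDX18 knockdown in ESCs it was at means of 209 and 196 and was not called (-0.09, adjusted p = 0.097). Knockdown in EZH2 KO (-0.36) and p53 KO ESCs (-0.06) gave no call of Mybl2 either. Rb1, the retinoblastoma gene, rose with ActD from 1.398 to 7.39 (1.81 (adjusted p = 7.3e-05)), with CX-5461 from 1.21 to 12.6 (2.62 (adjusted p = 8.9e-07)), with CHX from 2.31 to 8.48 (1.52 (adjusted p = 0.0013)) and with knockdown in ESCs from 1.76 to 6.36 (1.42 (adjusted p = 1.2e-05)). Rbl2 (p130, a pocket protein of DREAM) rose with CHX from 3.396 to 15.9 (1.96 (adjusted p = 0.0012)) and with CX-5461 from 0.932 to 4.37 (1.48 (adjusted p = 1.6e-05)). Of the 19 the calls were 5 higher and 6 lower with ActD, 7 and 3 with CHX, and 3 and 5 of 18 tested with CX-5461. With ActD in p53 KO ESCs they were 3 and 2 of 17, with knockdown 3 and 6 of 10 in ESCs, 0 and 1 of 18 in EZH2 KO ESCs and none in p53 KO ESCs, and 0 and 1 of 10 in the embryos. The shares over all genes in these comparisons are those given with the lists above.

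DDX18 was also mapped on RNA by crosslinking (CLIP, 2 libraries) and tandem affinity purification (TAP, 2 libraries). The authors' annotation, on mm10, placed 6 of 880 and 6 of 939 CLIP regions and 1 of 635 and 2 of 741 TAP regions at members. Incenp had a region in exon 11 of 18 (chr19:9878301-9878400, minus strand) in both CLIP libraries, with the authors' scores of 22 and 25 beside library medians of 22 and 21.75, and another in exon 14 (chr19:9876601-9876800) with scores of 16.5 and 12. Espl1 had a region in exon 8 of 31 in 1 CLIP library (chr15:102305001-102305100, score 11) and Bub1b a region in exon 9 of 23 in the other (chr2:118617701-118617800, score 12). The regions given to Kif2c are intergenic and annotated as U5 snRNA repeats. What the score counts is not stated in those annotations. Incenp was not called with knockdown in p53 KO or EZH2 KO ESCs (log2 changes 0.04 and 0.01) and is not listed in the ESC table.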

How the data were processed

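RNA-seq of 37 libraries was analysed in 8 tables, a part of a series of 43 samples. The deposited values are FPKM, per the file headers, and the counts of mapped reads in the control and knockdown ESC libraries are those deposited by the authors. The submitters' processing notes list TopHat2 2.0.11, CASAVA, mm9 and mm10 with no role for any, and the program and scaling behind the FPKM values are not given in the sources used here. Each region of the CLIP and TAP lists has a score, deposited by the authors. Read totals of the other tables were not used here, because their rows carry no replicate number, so depth is unknown for most libraries and their number limits the precision.

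Where a symbol had several entries the one with the highest mean was kept. Each table was fitted over all genes with limma 3.58.1 (R 4.3.3) on log2(FPKM + 1) with a variance trend, after keeping genes that reached 1 FPKM in at least the number of libraries of the smallest group, and p-values were adjusted by Benjamini-Hochberg over all genes kept. Differences between genotypes were fitted over both tables together. The fit was tested on simulated data. Alternatives were a pseudocount of 0.1, no filter, a filter of 5 FPKM, libraries rescaled by median ratio, no variance trend, a replicate block and leaving out each library. The members, roles, lists and tests were chosen with earlier results of these data known, so none is independent of them. Ccnb1, Cdk1, Ccna2, Plk1, Foxm1 and Aurkb were to be named in every comparison, with up to 6 members called in each direction by size of change, the 2 most abundant members where none was called, and up to 3 genes of each other list. Fbxo5, Plk4 in the knockdown of p53 KO ESCs, and genes followed from one comparison to another, were named after their values were seen. The number of columns of samples outside the labels was 0. ChIP-seq was not used here. Same-numbered samples did not deviate together (correlations -0.256 to 0.0531), so the numbers were not taken as pairs.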

Additional observations from a re-analysis of the deposited data

Results flagged for a closer look

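Differences between genotypes in the size or direction of the same treatment's effect drew attention, each by limma's test of the difference itself. For ActD at 10 ng/ml, Fbxo5 differed between ESCs and p53 KO ESCs by -2.31 on the log2 scale (log2 changes -1.74 and 0.57), Bub1 by -1.36 (-0.87 and 0.49), Top2a by -1.02 (-0.99 and 0.03), Espl1 by -0.76 (-0.36 and 0.40) and Cdc25b by -0.74 (-0.25 and 0.49). Kif20a differed by -0.63 (0.02 and 0.64), Ttk by -0.49 (0.29 and 0.78) and Racgap1 by -0.42 (0.16 and 0.58). Rescaled libraries ended the calls of Cdc25b (-0.51), Ttk (-0.25) and Racgap1 (-0.17). In the other direction were Prc1 at 0.43 (0.80 and 0.37), Cdc20 at 0.58 (0.80 and 0.23), Foxm1 at 0.64 (1.59 and 0.94), Cenpe at 0.81 (1.02 and 0.21) and Hmmr at 1.00 (0.83 and -0.17).

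For DDX18 knockdown, ESCs and p53 KO ESCs differed for Fbxo5 by -1.75 (-0.79 and 0.96), Nek2 by -1.16 (-0.28 and 0.88), Top2a by -0.73 (-0.80 and -0.07) and Kif2c by -0.71 (-0.37 and 0.35). ESCs and EZH2 KO ESCs differed for Cdc25b by -0.71 (-0.39 and 0.33), Top2a by -0.55 (-0.80 and -0.25), Kif23 by -0.42 (-0.38 and 0.04) and Aurkb by -0.40 (-0.43 and -0.03), each lost without any 1 of the 4 ESC libraries. Of the differences with p53 KO ESCs 1, that of Nek2, was called without any 1 of them. EZH2 KO and p53 KO ESCs differed for Plk4 by -1.61 (-0.27 and 1.33), lost with rescaled libraries (-1.37). The knockdown differences with ESCs cover only genes listed for the ESC knockdown, where 97.9% of those tested were called. Each difference crosses tables that were normalised separately, and no explanation was tested.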

How the results depend on the processing

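The counts of called members with knockdown in ESCs and EZH2 KO ESCs, ActD at 10 ng/ml in ESCs, CX-5461 and CHX stayed within 1.5 times under every alternative that kept all libraries. Elsewhere counts moved, and where no reason is given the cause was not tested. Rescaling gave 15 calls for ActD at 5 ng/ml (7 higher and 8 lower), 17 for ActD in p53 KO ESCs (4 and 13), 17 for the genotype difference with ActD (12 and 5), 7 for the knockdown difference of ESCs and EZH2 KO ESCs, 0 for that of EZH2 KO and p53 KO ESCs, and -0.08 for Anln with knockdown in ESCs. The members' median log2 change turned to -0.02 for ActD at 5 ng/ml, -0.14 for ActD in p53 KO ESCs and 0.06 for the genotype difference with ActD. Rescaling moved the median of all genes from 0.35 to 0.04 for ActD in p53 KO ESCs. For ActD at 5 and 10 ng/ml in ESCs it moved that median only from 0.24 to 0.13 and from 0.25 to 0.15. The median went from 0.03 to 0.06 for CX-5461 and from -0.11 to 0.09 for the genotype difference with ActD. It went from 0.00 to -0.14 for the knockdown difference of ESCs and EZH2 KO ESCs. Without a variance trend there were 8 calls for ActD in p53 KO ESCs, 1 for the difference of ESCs and EZH2 KO ESCs and 0 for that of EZH2 KO and p53 KO ESCs. A filter of 5 FPKM gave 3 calls with knockdown in p53 KO ESCs and 2 for the difference of EZH2 KO and p53 KO ESCs. No share of all genes is given here for that filter or for the fits without a variance trend. A pseudocount of 0.1, or no filter, gave 0 for that difference and 0 for the embryos.

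Over gene and setting pairs, 48 named changes kept their call and 7 lost it with the replicate block. The replicate block gave 2 calls for the knockdown difference of ESCs and p53 KO ESCs, 0 for ESCs and EZH2 KO ESCs and 0 for EZH2 KO and p53 KO ESCs. Numbers in the p53 KO knockdown correlated at -0.256, and a crossed block, added after seeing the data, gave 1 call. No paired analysis was possible because the columns carry no replicate numbers for the ActD and CHX tables. Leaving out single libraries gave 16 to 17 calls for knockdown in ESCs, 0 for knockdown in p53 KO and EZH2 KO ESCs and for the embryos, 7 to 22 and 13 to 24 for ActD at 5 and 10 ng/ml, 0 to 2 between the doses, 0 to 14 for ActD in p53 KO ESCs, 13 to 15 for CX-5461 and 22 to 26 for CHX. For the genotype differences it gave 8 to 18 with ActD, and 1 to 6, 0 to 5 and 0 to 2 with knockdown in the order above. A group reduced to 1 library was assumed to vary like the others. Among named genes, leaving out a library kept 672 calls, ended 111 and added 3.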

Other observations

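Untreated cells of 1 labelled genotype had very different member levels in different tables. In p53 KO ESCs, Ccnb1 was at 127 and 145 FPKM untreated in the ActD table and 5.15 and 20.6 in the knockdown controls, Fbxo5 at 31.5 and 30.2 against 3.74 and 5.93, Hmmr at 40.8 and 44.3 against 3.13 and 6.46, and Bub1 at 10.9 and 10.8 against 2.39 and 2.198. Incenp went the other way, at 56.5 and 72.7 against 196 and 138. EZH2 KO controls were like the p53 KO knockdown controls for Fbxo5 (5.04 and 3.98) and Incenp (142 and 121). These levels cross tables and carry no test.

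Pttg1, the member called in the embryos, had far-apart values within groups and between tables. In p53 KO ESCs it was at 1.97 and 19.7 FPKM in the controls and 27.5 and 3.47 after knockdown, at 35.9 and 34.6 untreated in the ActD series, at 105 and 87.6 in EZH2 KO controls, and at 1.17, 2.31 and 2.48 in untreated ESCs of the CX-5461 table.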
